A study of Mus musculus with 9 samples.

Results

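Hba-x encodes the embryonic alpha-like globin of the mouse (zeta-globin). The study's supplementary list of probes that differed between groups names 306 of the 23473 probes, with 302 gene names. Hba-x is the name of 1 of these probes, which was chosen by that name. The probes outside the list had no name here, so whether another of them reads Hba-x is not known. The transcript the chosen probe reads was not checked, since no probe sequence was used here. Because the list was drawn up on these same arrays, the levels of Hba-x are given here as a description, with the spread between arrays and without a test. Every embryo carried Cre under the myelin protein zero (P0) promoter and the CAG-CAT-EGFP reporter (P0-Cre/Floxed-EGFP), on a C57/BL6J background crossed to ICR, and was taken at E12.5. Cells of the craniofacial region and of the trunk, from which the heart field had been separated, were sorted by flow cytometry on EGFP, which remains on in cells that expressed Cre and in their progeny and marks neural crest derivatives. The 4 groups were craniofacial EGFP+ cells (Cp, 2 arrays), trunk EGFP+ cells (Tp, 3 arrays), craniofacial EGFP- cells (Cn, 2 arrays) and trunk EGFP- cells (Tn, 2 arrays), each hybridised to a 1-colour (Cy5) 3D-Gene array. Tp replicate 3 is not among the 8 arrays of the study's list, so it took no part in choosing Hba-x and is given apart below. The study calls its samples biological duplicates and does not say whether they came from separate litters.

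Globin genes are switched during development. The first red cells of the embryo, the primitive erythroid cells, arise in the yolk sac, enter the circulation with their nuclei and carry haemoglobin built from zeta-globin (Hba-x) and embryonic beta-like chains such as the product of Hbb-y. Definitive red cells from the fetal liver follow, and they use adult alpha chains with adult beta chains such as that of Hbb-b1. Hba-x lies in the alpha-globin locus and Hbb-y in the beta-globin locus, on different chromosomes. Erythroid promoters are often bound by GATA1, at a GATA core, and by KLF1, at a CACCC box, and many globin promoters hold a TATA box.

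The bases just upstream of the transcription start are shown for the genes of both embryonic globin chains and for Alas2, the erythroid enzyme of the first step of haem synthesis, because these genes lie on 3 chromosomes and their probes all stood lower on every EGFP+ array than on any EGFP- array. The probes of every other named erythroid gene did so too, and the share of all probes that did is not given. The sequences are from RefSeq (GRCm38.p6) and run 5′ to 3′ on the strand of the gene over the 130 bases that end 1 base before the start. Capitals mark 3 motifs on either strand: GATAA, which reads TTATC when it lies on the opposite strand, CACCC, which then reads GGGTG, and TATAAA, which then reads TTTATA.
Hba-x (chr11:32276470-32276599, plus strand): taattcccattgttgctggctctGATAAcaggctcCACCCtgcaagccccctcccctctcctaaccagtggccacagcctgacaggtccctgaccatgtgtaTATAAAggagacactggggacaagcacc
Hbb-y (chr7:103853208-103853337, minus strand): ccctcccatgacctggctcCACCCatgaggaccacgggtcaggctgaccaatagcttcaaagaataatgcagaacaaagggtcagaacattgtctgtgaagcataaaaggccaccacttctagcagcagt
Alas2 (chrX:150547287-150547416, plus strand): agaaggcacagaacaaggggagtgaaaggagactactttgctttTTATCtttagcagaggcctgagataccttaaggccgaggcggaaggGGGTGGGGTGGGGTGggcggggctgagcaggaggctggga
The Hba-x window held each of the 3 motifs once, with GATAA beginning 107 bases, CACCC 95 bases and TATAAA 28 bases before the start. Of 32851 promoter windows of this length, 11.4% held GATAA, 33.7% CACCC and 6.83% TATAAA on either strand, and 79 (0.240%) held all 3. The Hbb-y window held CACCC 111 bases before the start and neither of the others, and the Alas2 window held TTATC once and GGGTG at 3 adjoining places. Of the 9 erythroid genes with a named probe, 6 matched an entry in the promoter table, and of these 3 held GATAA, 5 CACCC and 1, Hba-x, TATAAA. A match describes the letters of the window only.

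Levels are the log2 of the processed value of each spot, which follows the spot reading less that of blank spots and has a median of 25 on each array. Hba-x was bright on all 4 EGFP- arrays and far dimmer, though measurable, on all 5 EGFP+ arrays. In Cn its log2 level was 14.50 and 13.88 on replicates 1 and 2, and in Tn it was 14.25 and 13.94. In Tp it was 8.25 on replicate 1, 7.02 on replicate 2 and 6.80 on replicate 3. In Cp it was 6.78 on replicate 1 and 5.50 on replicate 2, the lowest of the 9 arrays. The EGFP+ and EGFP- arrays did not overlap, and the dimmest EGFP- array exceeded the brightest EGFP+ array by 5.63 on the log2 scale.

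**Figure D1:**
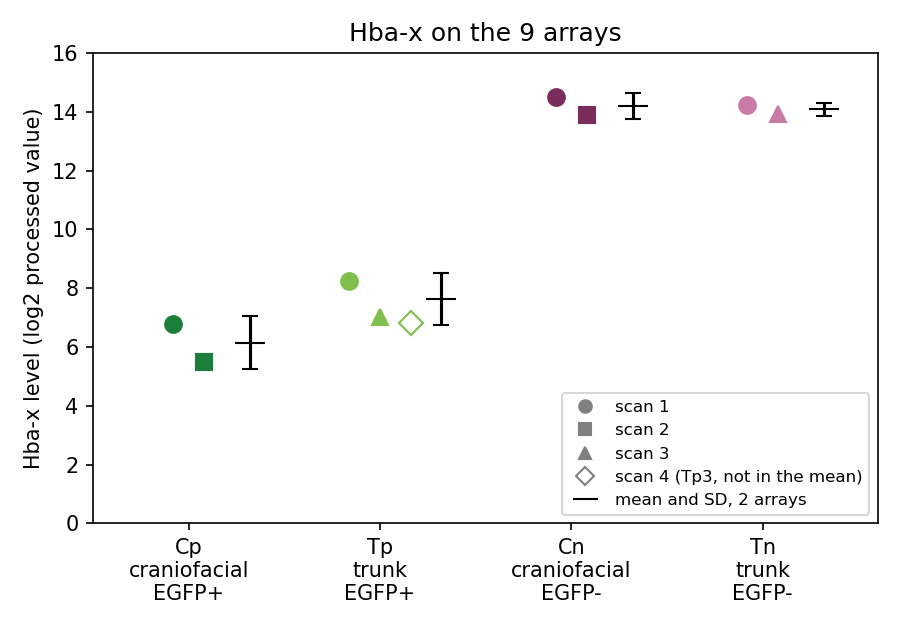
Level of Hba-x (log2 processed value, vertical axis) on each of the 9 arrays, by group; the shape of a point gives the scan, the open diamond is Tp replicate 3, and the black bar and whiskers are the mean and SD of the other 2 arrays of a group. The EGFP- arrays lie between 13.88 and 14.50, and the EGFP+ arrays between 5.50 and 8.25.

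On the linear scale the processed value of Hba-x was 23115 and 15032 in Cn and 19456 and 15683 in Tn. It was 304, 129 and 112 on Tp replicates 1, 2 and 3, and 110 and 45.3 in Cp. In order of the group means, Cp (6.14 ± 0.90, SD, n = 2) was lowest, followed by Tp (7.63 ± 0.87, n = 2, or 7.36 ± 0.78 with all 3 arrays), Tn (14.09 ± 0.22, n = 2) and Cn (14.19 ± 0.44, n = 2). Tn and Cn differed by 0.09, less than the spread within either group. Cp and Tp were set apart by little more than the gap between replicates: Cp replicate 1 lay 0.03 below Tp replicate 3 and 0.24 below Tp replicate 2.

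The level left in the EGFP+ cells was a small share of that in the EGFP- cells of the same region. Between Cp and Cn the log2 difference was -8.05 (limma standard error 0.50), so that Cp held 0.378% of the Cn level, a 264-fold difference. Between Tp and Tn it was -6.46 (standard error 0.50), with 1.14% left, an 88.1-fold difference. These shares are of signal in whole sorted samples, in which fewer erythroid cells and less Hba-x RNA per cell cannot be told apart. Single EGFP+ arrays moved these values by over 1.5 times: without Cp replicate 1 or 2 the craniofacial difference was -8.68 or -7.41, and without Tp replicate 1 or 2 the trunk difference was -7.08 or -5.85. With Tp replicate 3 included, the trunk difference was -6.74.

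Arrays scanned together gave the same direction. The first replicate of each of the 4 groups was read in scan 1. In the craniofacial region the second replicates were both read in scan 2, in the trunk in scan 3, and Tp replicate 3 was read alone in scan 4. Hba-x was 211-fold lower in Cp than in Cn in scan 1, with 0.474% left, and 332-fold lower in scan 2, with 0.301% left. It was 64.1-fold lower in Tp than in Tn in scan 1, with 1.56% left, and 121-fold lower in scan 3, with 0.826% left. In scan 1, which allows all 4 groups to be compared, the log2 difference was -1.47 between Cp and Tp and 0.25 between Cn and Tn.

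The size of the difference between the EGFP+ groups moved with single arrays. Over the 8 arrays Cp was below Tp by a log2 difference of -1.49 (standard error 0.50), which is 2.81-fold. Without Cp replicate 2 it was -0.85, without Tp replicate 1 it was -0.88, without Cp replicate 1 it was -2.13 and without Tp replicate 2 it was -2.11. With all 9 arrays it was -1.22, and with the scan as a block -1.40. Replicate 1 read higher than replicate 2 in all 4 groups, and Cp differed from Tp by -1.47 between the first replicates, both of scan 1, and by -1.51 between the second replicates, of scans 2 and 3. The labels give the replicate number no shared origin, although the first replicates also shared a scan, and all of these values were negative.

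The difference between EGFP+ and EGFP- cells was larger in size in the craniofacial region than in the trunk, by a log2 difference of differences of -1.59 (standard error 0.70). Single EGFP+ arrays moved this value as well. It was -0.95 without Cp replicate 2, -0.97 without Tp replicate 1, -2.22 without Cp replicate 1 and -2.20 without Tp replicate 2. With all 9 arrays it was -1.31, and it was 0.00 once the ring around each spot was subtracted.

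The scatter of Hba-x among replicates was wide in the EGFP+ groups on the processed values. Replicates 1 and 2 differed by 1.28 on the log2 scale in Cp, a gap matched or exceeded by 1.38% of the 21807 probes kept for the fit, and by 1.23 in Tp, matched or exceeded by 3.27%. In Cn they differed by 0.62 (18.1% of probes) and in Tn by 0.31 (52.5%). Across the 5 EGFP+ arrays Hba-x spanned 2.74, or 6.70-fold, from Cp replicate 2 to Tp replicate 1. Across the 4 EGFP- arrays it spanned 0.62. With the ring around each spot subtracted, replicates 1 and 2 read 7.34 and 6.73 in Cp and 7.61 and 7.59 in Tp, so the wide gap in Tp was not seen there.

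The scanner readings behind these values showed a spot well above background on every array. The spot read 24055 and 22885 scanner units in Cn and 23671 and 24690 in Tn, below the scanner's ceiling of 65535. It read 153 and 105 in Cp and 418, 183 and 219 on Tp replicates 1, 2 and 3. The blank spots, which carry no probe, averaged 11.7 to 34.3 on the 9 arrays, and the Hba-x spot was above their mean plus 2 SD on all 9 and passed the scanner's flag on each. Cp replicate 2, which had the lowest level, was 4.08 times its blank mean, and Tp replicate 3 was 6.38 times. Tp replicate 3 read higher than Tp replicate 2 on the scanner but lower after blank subtraction and scaling, and its blank mean of 34.3 was the highest of the 9. The spots next to Hba-x covered overlapping ranges in EGFP- and EGFP+ samples. The brightest of its 8 neighbours read 342 to 627 on EGFP- arrays and 395 to 477 on EGFP+ arrays, and the other 7 read 12 to 168 and 13 to 164.

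**Figure D2:**
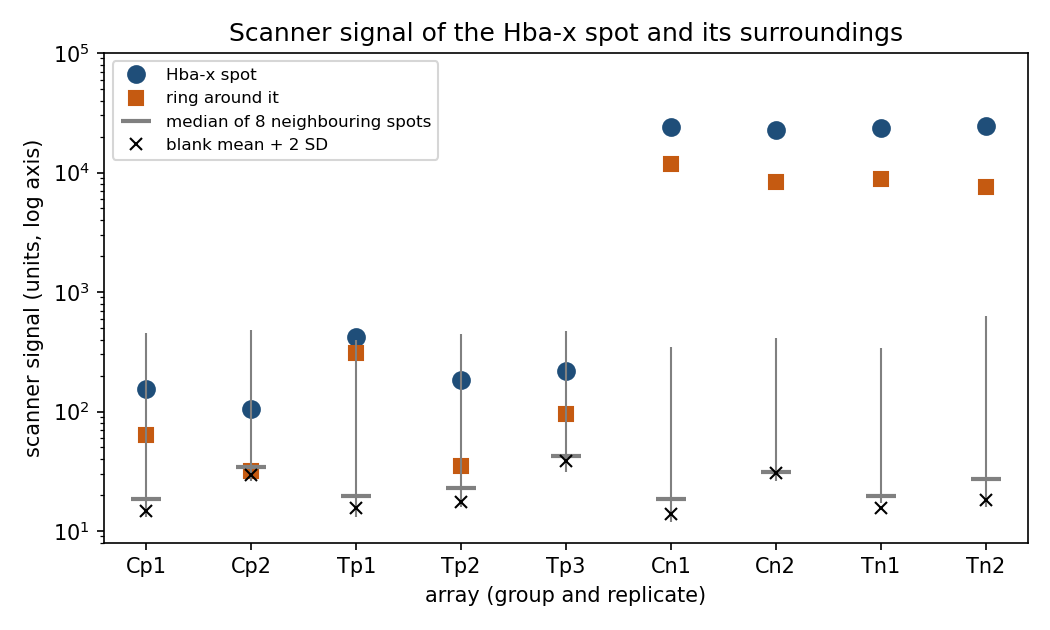
Scanner signal (log axis, scanner units) of the Hba-x spot, the ring around it, its 8 neighbouring spots (grey line from lowest to highest, bar at the median) and the limit of the blank mean plus 2 SD on each array. The spot reads 22885 to 24690 on the EGFP- arrays and 105 to 418 on the EGFP+ arrays, above the blank limit on all 9, while the ranges of the neighbours overlap.

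The scanner also reads a ring around each spot as local background, and this ring was bright where the Hba-x spot was bright. It read 11716 and 8258 in Cn and 8788 and 7504 in Tn, against 64 and 32 in Cp. In Tp it read 310, 35 and 96 on replicates 1, 2 and 3, so that on Tp replicate 1 it was 74.2% of the spot, against 19.1% to 48.7% on the other 8 arrays. With the ring subtracted (normexp, offset 50) and quantile normalization, the log2 level of Hba-x was 7.34 and 6.73 in Cp, 7.61 and 7.59 in Tp, 13.76 and 13.64 in Cn and 14.23 and 14.30 in Tn. On that scale the differences were -6.67 between Cp and Cn, -6.67 between Tp and Tn, -0.56 between Cp and Tp and, on the EGFP- side, -0.56 between Cn and Tn, against 0.09 on the processed values. The EGFP+ and EGFP- arrays did not overlap on either scale, while the craniofacial and trunk differences were equal to 2 decimals on the ring-corrected scale, against a gap of -1.59 on the processed values.

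The other erythroid genes were lower in EGFP+ cells in both regions on the authors' processed values. A list of 53 erythroid genes was counted, of which 8 besides Hba-x have a name on a probe. The study picked all of these on the same arrays, so their counts and p-values are not independent evidence. In the limma fit with Benjamini-Hochberg adjustment over all probes, 8 of 8 were lower in Cp than in Cn, with a median log2 difference of -4.86, where 4.33% of all probes were called lower and the median over all probes was 0.10. In the trunk 8 of 8 were lower in Tp than in Tn, with a median of -4.37, where 3.04% of all probes were called lower and the median over all probes was -0.03. On the ring-corrected signal limma called 0 of 8 in either region, where 0.0642% and 0.0459% of all probes were called lower in Cp and in Tp. At an unadjusted p of 0.05 it called 7 of 8 in each, where 3.04% and 4.98% of all probes were called lower, and all 8 differences were negative in both, with medians of -1.47 and -1.26, far smaller in size than on the processed values.

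Among the 11 named erythroid probes, the difference of Hba-x was the largest in size in the craniofacial region as measured, without a test of that order. Dimmer probes had less room to fall, with mean log2 levels in Cn of 5.32 for Trim10, 5.60 for Tal1 and 5.98 for Rhd, against 14.19 for Hba-x. In the trunk its rank against Hbb-y was not settled, because the Hbb-y spot reached the scanner's ceiling on 1 Tn array. Hbb-b1, an adult beta-globin, is read by 2 probes, and whether they also read its near-identical neighbour gene was not checked. The more changed of the 2 read 8.33 and 7.52 in Cp, 8.93, 8.60 and 8.02 in Tp, 15.04 and 14.57 in Cn and 14.18 and 14.87 in Tn. Its log2 difference was -6.88 (standard error 0.36, adjusted p = 2.03e-05) in the craniofacial region and -5.76 (standard error 0.36) in the trunk. The other Hbb-b1 probe changed by -6.38 and -5.33. Hbb-y, the embryonic beta-like globin, read 9.36 and 8.25 in Cp, 9.89, 9.84 and 9.68 in Tp, 15.22 and 15.02 in Cn and 15.21 and 15.35 in Tn. Its log2 differences were -6.32 (standard error 0.35, adjusted p = 2.49e-05) and -5.42 (standard error 0.35), the second a lower limit in size because of the ceiling on Tn replicate 2. For both Hbb-b1 probes and for Hbb-y, as for Hba-x, no EGFP+ array overlapped an EGFP- array, Cp replicate 2 was the lowest of the 5 EGFP+ arrays and Tp replicate 1 the highest. The lack of overlap held for every named erythroid probe, all of them listed by the study for differing between groups. The share of all probes without overlap is not given.

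Genes of haem synthesis and of the red cell membrane were lower in EGFP+ cells as well. Alas2 changed by -4.22 (standard error 0.31) and -3.89 on 1 probe and by -4.25 and -3.82 on the other. Rhd, a Rhesus blood group protein of the red cell membrane, changed by -3.04 and -3.37. Car2, a carbonic anhydrase abundant in red cells, changed by -4.96 and -4.85. Tal1, a transcription factor of blood cell formation, changed by -4.75 and -3.48, and Trim10, a protein of terminal erythroid differentiation, by -2.04 and -2.00. Over the 10 probes other than Hba-x the adjusted p lay between 1.84e-05 and 0.00215 in the craniofacial region and between 6.36e-05 and 0.00242 in the trunk. The study had picked these probes for differing between groups on the same arrays, so the p-values are not independent evidence. Several of these probes were close to the blanks in EGFP+ cells: Tal1 was above the blank limit on 1 of 2 Cp arrays and had log2 levels of 1.27 and 0.44 there, which narrows how far it could fall.

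**Figure D3:**
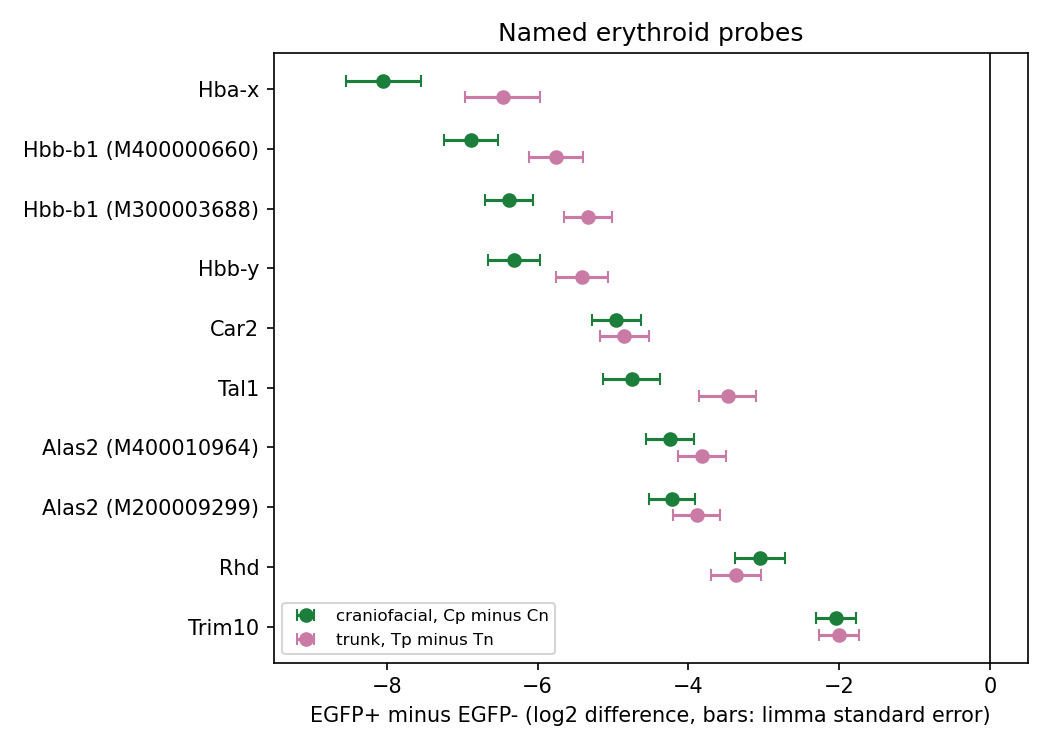
Log2 difference EGFP+ minus EGFP- (horizontal axis, with limma standard errors as bars) of 10 erythroid probes in the craniofacial region (green) and the trunk (pink), from the authors' processed values on 8 arrays. Hba-x lies at -8.05 and -6.46 and Trim10 nearest to 0, and the trunk value of Hbb-y, -5.42, is a lower limit in size.

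Between the EGFP+ groups few erythroid genes were called, which with 2 arrays per group does not show that their differences were small. Of 8 genes, 1 was lower in Cp than in Tp and none higher, where 5.1% of all probes were called lower and 2.93% higher, and the median log2 difference was -0.24. The gene was Tal1, with -1.62 (standard error 0.38, adjusted p = 0.0314), a value limited by its being above the blank limit on 1 of 2 Cp arrays. In place of 1, limma called 0 of 8 with all 9 arrays, with the scan as a block, with blank-subtracted scanner values or with the ring subtracted. The call of Tal1 also depended on single arrays. Its difference was -1.21 without Cp replicate 2, -1.58 without Tp replicate 1 and -1.67 without Tp replicate 2. The share of all probes called in those fits is not given. At an unadjusted p of 0.05, 2 of 8 were lower on the processed values (11.9% of all probes), 2 with all 9 arrays (9.77%), 1 with the scan block (11.8%), 2 with blank-subtracted scanner values (9.58%) and 0 with the ring (4.52%). The globin probes had differences of -0.72 and -0.84 (Hbb-b1) and -1.06 (Hbb-y), and the Alas2 probe that stands for the gene -0.01. Between the EGFP- groups limma called 0 of 8 lower and 0 of 8 higher, where 0.743% and 0.523% of all probes were called, and also 0 at an unadjusted p of 0.05, where 8.44% and 3.07% were.

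Within the 5 EGFP+ arrays the order of the arrays was partly shared. Tp replicate 1 was the highest for 6 of the 10 other erythroid probes, as it was for Hba-x, and Cp replicate 2 was the lowest for 6. Cp replicate 1 was the highest for 3 and Tp replicate 2 for 1. Tp replicate 3 was the lowest for 3 and Tp replicate 1 for 1. Hbb-b1 and Alas2 are each read by more than 1 of these probes. The share of all probes with such an order is not given, so an order particular to erythroid genes is not shown. The 10 probes spanned 0.32 (Trim10) to 2.08 (Tal1) on the log2 scale over these arrays, with 1.65 for Hbb-y and 1.42 and 1.20 for Hbb-b1, against 2.74 for Hba-x. For Alas2 the span was 0.40 and 0.76, for Car2 0.72 and for Rhd 1.15. Whether Hba-x varied more than the others was not tested.

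Markers of some other cell types, like Hba-x, stood lower in EGFP+ than in EGFP- cells. The summed processed value of the 8 other erythroid genes was 693 to 1238 in Cp, 1341 to 1789 in Tp, 64630 to 79355 in Cn and 61682 to 76516 in Tn. That sum was set mostly by its brightest genes, Hbb-b1 and Hbb-y. The named genes of the lists of other cell types were, like the erythroid ones, picked by the study on these arrays, so their counts are not independent evidence. Of 17 named myeloid and mast cell genes, 16 were lower in Cp than in Cn, where 4.33% of all probes were called lower, and 17 lower in Tp than in Tn, where 3.04% were. Their summed value was 99.3 to 115 in Cp, 116 to 145 in Tp, 732 to 757 in Cn and 1141 to 1412 in Tn. Unlike the erythroid sum, it was thus higher in Tn than in Cn. The medians of their log2 differences were -2.92 and -3.20. Tyrobp, an adaptor protein of myeloid cells, changed by -2.84 and -2.86, and Fcer1g, an Fc receptor subunit, by -3.13 and -3.09. Ccl2, a chemokine, changed by -2.00 and -2.18. Cd83, an activation marker of dendritic cells, was lower in the trunk (-2.32), while its craniofacial difference of -0.62 did not pass.

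Skeletal muscle genes were also lower in EGFP+ cells, with 16 of 16 called in each region, where 4.33% and 3.04% of all probes were called lower, and medians of -3.37 and -3.45. These 16 names too are from the study's list on the same arrays. Their summed processed value was 129 to 157 in Cp, 219 to 266 in Tp, 1791 to 2315 in Cn and 3725 to 4371 in Tn. Actc1, the cardiac alpha-actin that embryonic skeletal muscle also uses, changed by -5.24 and -5.10, and Myl1, a myosin light chain, by -4.73 and -4.46. Tnnt1, a slow troponin T, changed by -3.89 and -3.41, and Vgll2, a cofactor of muscle transcription, by -2.17 and -3.86. The same counts on the ring-corrected signal were 0 of 17 and 1 of 17 for the myeloid and mast cell genes and 1 of 16 and 2 of 16 for muscle, where 0.0642% and 0.0459% of all probes were called lower. At an unadjusted p of 0.05 they were 8 and 14 of 17 and 6 and 9 of 16, where 3.04% and 4.98% of all probes were called lower. The medians on that signal were -0.36 and -0.51 for the myeloid and mast cell genes and -0.45 and -0.73 for muscle.

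Neural crest and glial genes went the other way for the most part. Of 7 named, all picked by the study on these arrays, 4 were higher in Cp than in Cn, where 1.41% of all probes were called higher. In the trunk 5 were higher and 2 lower in Tp than in Tn, where 2.24% of all probes were called higher and 3.04% lower. The count of 4 fell whenever a single Cn or Cp array was left out. Such a fit leaves 1 array in a group, and the share of all probes called in it is not given. On the ring-corrected signal the counts of higher genes were 0 and 4, where 0.00459% and 0.0825% of all probes were called higher, and 2 and 5 at an unadjusted p of 0.05, where 2.58% and 4.05% were. Their summed processed value was 2199 to 2600 in Cp, 13685 to 15342 in Tp, 2390 to 2398 in Cn and 2686 to 3223 in Tn. The sum was set mostly by 1 gene, Fabp7, with mean log2 levels of 10.75 in Cp, 13.68 in Tp, 11.03 in Cn and 11.05 in Tn. Ednrb, the endothelin receptor B of crest cells and melanoblasts, was higher in EGFP+ cells by 1.43 and 3.76. Fabp7, a glial fatty acid binding protein, was higher in the trunk (2.63), while its craniofacial difference of -0.29 did not pass. The 2 genes lower in Tp than in Tn were Mia1, a secreted cartilage protein, and Pax7, a transcription factor of crest and of muscle precursors. Mia1 was higher by 1.30 in the craniofacial region and lower in the trunk, at -3.20. Pax7 was higher by 1.36 in the craniofacial region and, as measured, 15.9-fold lower in Tp than in Tn (limma adjusted p = 8.58e-05). The size of that fold is uncertain, because Pax7 was not above the blank limit on any Tp array. Foxd3, a transcription factor of early crest, had log2 levels of 3.09 to 3.72 in Cp, 2.05 to 2.71 in Cn, 6.76 to 7.40 in Tp and 4.02 to 4.07 in Tn. Its difference of 3.13 passed in the trunk and that of 1.02 in the craniofacial region did not, and both Tn arrays read higher than either Cp array. Of 9 erythroid genes set as defining, 5 had a named probe and the rest could not be read. Those 5, among them Hba-x, Hbb-y, Hbb-b1 and Alas2, remained above the blank limit on all 5 EGFP+ arrays. So did 4 of 5 myeloid and mast cell markers and 4 of 4 muscle markers, the exception being Cpa3, a mast cell protease, on 4 of 5 arrays. Most probes lay above that limit, with 80.0% to 88.4% of all probes above it on each of the 5 EGFP+ arrays. These counts therefore do not set the markers apart from other probes. The part of the other cell types in the level of Hba-x was not tested.

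The probes whose profile over the 9 arrays was nearest to that of Hba-x were partly erythroid. Profiles were centred on their own mean and compared by the root mean square of their differences on the log2 scale, in which the step between EGFP+ and EGFP- arrays weighs most. The nearest named probe was Olfr376, by name an odorant receptor, at 0.34, against a median of 3.65 over the 305 other named probes and 3.69 over all probes, and 1 unnamed probe was nearer still. Olfr376 read 4.64 and 3.88 in Cp, 5.70, 5.55 and 5.16 in Tp, 12.78 and 12.49 in Cn and 12.43 and 12.35 in Tn. Its log2 differences were -8.38 and -6.76 between EGFP+ and EGFP- cells, and its difference between Cp and Tp was -1.37 (standard error 0.29), given without a test because the probe was chosen for its likeness to Hba-x. As for Hba-x, the transcript this probe reads was not checked.

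Next came Xtrp3s1 (now Slc6a20a), an amino acid transporter, at 0.58, the Hbb-b1 probes at 0.60 and 0.81, and Hbb-y at 0.82. Xtrp3s1 changed by -6.84 and -5.69. Hsd3b6, an enzyme of steroid synthesis, followed at 1.02, Uncx4.1 (now Uncx), a homeobox factor of the somites, at 1.10, and Actc1 at 1.16. Car2 at 1.29 closed the 10. Of these 10 probes, 5 are of the erythroid list and 1, Actc1, is of the muscle list. Over all 23472 other probes, 20 lay within the distance of the last of them.

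**Figure D4:**
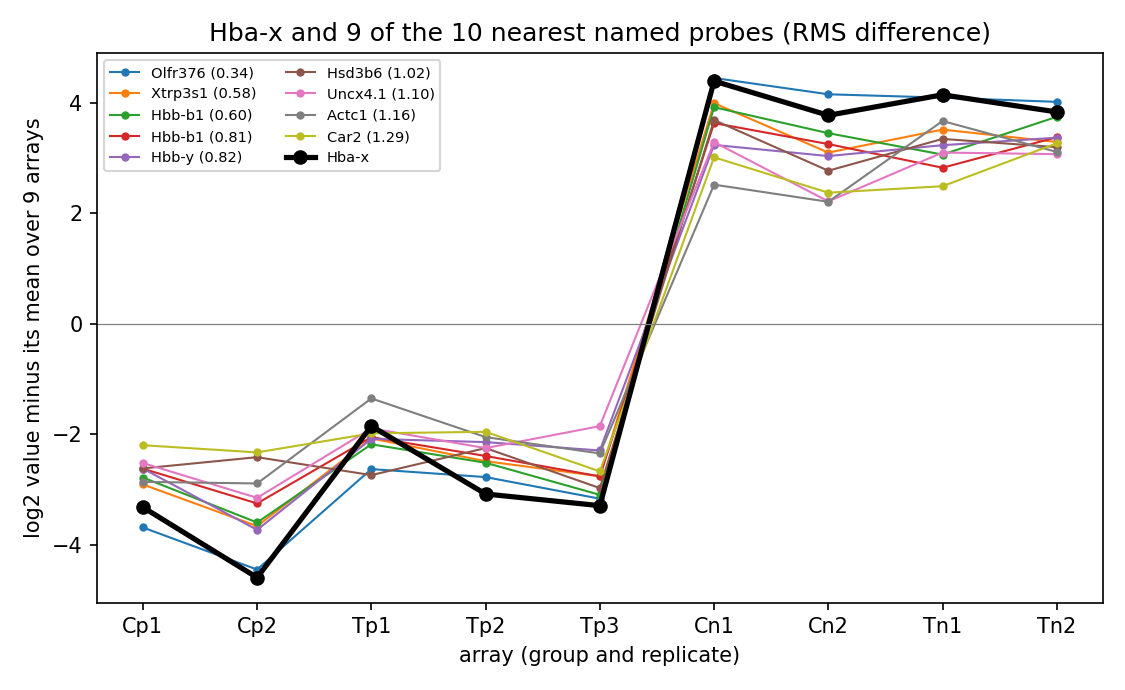
Log2 level minus its mean over 9 arrays (vertical axis) of Hba-x (black) and of 9 of the 10 named probes nearest to it, with the root mean square difference of each in the key. All 10 lines step up between the EGFP+ and EGFP- arrays, and Olfr376, at 0.34, runs closest to Hba-x.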

How the data were processed

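Total RNA of sorted cells was amplified, coupled to Cy5 and hybridised to 3D-Gene arrays (Toray); the labels and the methods name different extraction kits. The authors deposited scanner intensity (spot and ring) for each array and a table of processed intensity values. Their formula is not given in the sources used here; they equal, within 5% for 97.1% to 99.9% of bright probes, the spot intensity minus the blank mean times 1 factor per array. Empty cells received the lowest value of their array. Gene names come from the study's list of 306 named probes; the authors' p-values and folds were not used. The fit kept 21807 of 23473 probes, those that exceeded the mean of the blank spots by 2 SD on 2 or more of 8 arrays. limma 3.58.1 (R 4.3.3) was fitted to log2 of the deposited values with 4 group means on the 8 arrays of the study's list, with 4 residual degrees of freedom, p-values were adjusted by Benjamini-Hochberg (threshold 0.05), and the fit was tested on simulated data. Since separate litters are not stated, the p-values reflect only how far these arrays scatter, which may be technical.

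Hba-x, the gene lists, the rule for named genes and the settings were chosen with earlier results of these data known. The rule names Hba-x, every named gene of the erythroid list, up to 4 of the brightest members of each other list and the 10 named probes nearest to Hba-x; Foxd3, Pax7 and Cpa3 are not covered by it and were picked with their values in view. Of the genes the rule names, 2 are not reported here by name but are part of the counts, medians, sums and ranges of their lists. The processed values were preferred to the ring-corrected scanner signal because the ring follows the spot (correlation across probes of the logs 0.909 to 0.985 per array). That choice decides the calls of the erythroid genes, so both counts are given.

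Precision is limited by the number of arrays. On the 9 arrays the median spot reached 1.81 to 3.21 times the blank mean, and 72.8% to 90.2% of probes lay above the blank limit. Alternatives were the ring-corrected signal, blank-subtracted scanner values, quantile and 75th percentile scaling, all 9 arrays, the scan or the replicate number as a block, no filter, empty cells left out, the methods' analysis of variance, and each array left out.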

Additional observations from a re-analysis of the deposited data

Results flagged for a closer look

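The difference between EGFP+ and EGFP- cells was not the same in both regions for 6 named genes, by limma's test of the difference of differences (craniofacial minus trunk, Benjamini-Hochberg adjusted over all probes, 8 arrays). The study had picked all 6 from the same arrays. Pax7 gave 5.36 (standard error 0.38, adjusted p = 0.000579), from 1.36 in the craniofacial region and -3.99 in the trunk, where it was below the blank limit on all Tp arrays. Mia1 gave 4.50 (0.36, adjusted p = 0.000639), from 1.30 and -3.20. Fabp7 gave -2.91 (0.33, adjusted p = 0.00176), from -0.29 and 2.63. Ednrb gave -2.32 (0.33, adjusted p = 0.00509), from 1.43 and 3.76. Cd83 gave 1.70 (0.36, adjusted p = 0.0268), from -0.62 and -2.32. Foxd3 gave -2.11 (0.46, adjusted p = 0.029), from 1.02 and 3.13. None of the 6 is an erythroid gene. The share of all probes called in this test is not given, so no result about the erythroid genes is drawn from that.

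On the ring-corrected signal the same difference was past the threshold for Fabp7 alone, at -7.01 (0.43, adjusted p = 0.0479). It was 2.86 (0.84, adjusted p = 0.437) for Mia1, -2.01 (0.18, adjusted p = 0.0691) for Ednrb, -0.86 (0.09, adjusted p = 0.0901) for Foxd3 and 0.13 (0.07, adjusted p = 0.759) for Pax7. For Cd83 it was 0.03 (0.09, adjusted p = 0.978). On that signal 50 is added to each value before the log, which shrinks the differences of dim probes such as Cd83 and Pax7. The small values of these genes there therefore cannot decide whether their differences on the processed signal hold. Cd83 also missed the threshold with each of the 8 arrays left out in turn (adjusted p up to 0.107) and with blank-subtracted scanner values (1.56, adjusted p = 0.0722). Foxd3 missed it with blank-subtracted values (-2.03, adjusted p = 0.0518) and with 5 of the 8 arrays left out singly. The other 4 passed with each array left out.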

How the results depend on the processing

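The differences of Hba-x kept their sign under all alternatives except Cn minus Tn, which was 0.09 and became -0.56 on the ring-corrected signal, and the difference of differences (Cp minus Cn less Tp minus Tn), which was 0.00 there. That signal gave -6.67 for Cp minus Cn and -0.56 for Cp minus Tp. Leaving out single arrays gave -8.68 to -7.41 (Cp minus Cn), -7.08 to -5.85 (Tp minus Tn), -2.13 to -0.85 (Cp minus Tp), -0.22 to 0.40 (Cn minus Tn) and -2.22 to -0.95 (difference of differences). On the ring-corrected signal the counts called were 0 and 0 of 8 erythroid, 0 and 1 of 17 myeloid and mast cell and 1 and 2 of 16 muscle genes lower in Cp and Tp, and 0 of 7 crest and glial genes higher in Cp; the cause was not tested. The erythroid count lower in Cp than Tp was 0 with the ring, blank-subtracted scanner values, all 9 arrays or the scan block, and 0 to 2 with single arrays left out. With single arrays left out, the crest and glial count higher in Cp than Cn was 0 to 4, the erythroid counts 8 to 8 in both regions, the myeloid 15 to 16 and 17 to 17, the muscle 14 to 16 and 16 to 16, and the trunk crest count 5 to 5; erythroid Cn below Tn was 0 to 0. The share of all probes called with single arrays left out is not given. Tnnt1 turned from -1.31 to 0.0359 in Cp minus Tp with the ring. Of 1581 gene-level values compared, 1479 kept their side of the threshold, 92 lost their call (53 of them with the ring), 9 gained one and 1 reversed. Direction was compared only for values called in the main setting, so changes of sign among uncalled values are not counted. The replicate block left the differences of Hba-x at -8.05, -6.46, -1.49 and 0.09 and the difference of differences at -1.59; deviations of same-numbered arrays correlated at 0.08 to 0.42 over 6 pairs of groups, and the labels give the number no shared origin. The 75th percentile scaling shifted arrays by -0.12 to 0.11.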
